A study of Mus musculus with 12 samples.

Results

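The ATF4 stress regulators are 10 genes around Atf4, the transcription factor of the integrated stress response: Atf4 itself, the factors Ddit3 (also known as CHOP), Atf3 and Atf5, and the genes Trib3, Chac1, Asns, Sesn2, Ddit4 and Vldlr. They were picked by symbol, as 10 of the 17995 genes with expression values, and all 10 were found in all 12 libraries. The set was chosen by its measured values in these same libraries, so its levels and its differences between groups are given as a description, with no p-value. Where counts of these genes called in fits over all genes are printed, they stand beside the share of all genes and serve as no test of the set. A filter kept genes whose mean RPKM over a line's 6 libraries was 0.5 or more, and all 10 passed it in both lines.

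Expression was measured by RNA-seq in 2 mouse cell lines, C18-4 (labelled as spermatogonia stem cells in the study) and TM4 (a Sertoli cell line), given with strain IRC in the labels. Each line carried lentivirus with shM5, which targets M5 (Chrm5, a muscarinic acetylcholine receptor), or the control shNC. The groups were C18-4 shNC (label C3NC), C18-4 shM5 (CM5), TM4 shNC (TM3NC) and TM4 shM5 (TMM5), with 3 libraries each. All groups, controls included, carried virus, shRNAs against 3 positions of Chrm5 were made, and nothing in the labels says that libraries of a group came from separate cultures, so p-values measure only the spread between these libraries, which may be technical.

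In the integrated stress response, kinases that sense amino acid shortage, unfolded protein in the endoplasmic reticulum, haem shortage or double-stranded RNA phosphorylate eIF2. General translation then falls while the Atf4 mRNA is translated more, because of short open reading frames ahead of its coding sequence. ATF4 pairs with other bZIP factors, above all of the C/EBP family, and induces genes of amino acid supply, further transcription factors and feedback inhibitors such as Trib3. Because much of this control is translational, the Atf4 mRNA is not a measure of the ATF4 protein, which was not analysed here.

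ATF4 and C/EBP factors bind together at a composite element, and the promoters of the 10 genes were searched for it so that the members can be seen side by side. The search used the letters TGATGNAAN, a motif of 9 letters, on both strands of the RefSeq windows of GRCm38.p6, from 250 bases before to 50 bases after each annotated start. Such a window was found for all 10 genes, 12 windows in all since Atf5 and Vldlr have 2 annotated starts each. A match was present in 5 of these windows, 1 each for Trib3, Chac1, Asns, Atf3 and Vldlr, and no match was present in those of Atf4, Ddit3, Sesn2, Ddit4 and Atf5. Over all 32851 windows searched, 1299 (3.95%) held a match, and among 14057 genes of the expression file with a window it was 480 (3.41%). A match is a description of letters, not a binding site. The 5 windows are printed as the strand of the gene reads, with the match in capitals. They are chr2:152344011-152344310 for Trib3 (minus strand), chr2:119350992-119351291 for Chac1 (plus strand), chr6:7693160-7693459 for Asns (minus strand), chr1:191183284-191183583 for Atf3 (minus strand) and chr19:27216770-27217069 for the second start of Vldlr (plus strand).
Trib3: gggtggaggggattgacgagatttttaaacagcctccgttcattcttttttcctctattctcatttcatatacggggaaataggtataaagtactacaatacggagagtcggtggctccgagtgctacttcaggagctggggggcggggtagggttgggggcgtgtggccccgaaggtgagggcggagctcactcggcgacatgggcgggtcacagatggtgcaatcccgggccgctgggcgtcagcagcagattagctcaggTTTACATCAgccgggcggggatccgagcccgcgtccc
Chac1: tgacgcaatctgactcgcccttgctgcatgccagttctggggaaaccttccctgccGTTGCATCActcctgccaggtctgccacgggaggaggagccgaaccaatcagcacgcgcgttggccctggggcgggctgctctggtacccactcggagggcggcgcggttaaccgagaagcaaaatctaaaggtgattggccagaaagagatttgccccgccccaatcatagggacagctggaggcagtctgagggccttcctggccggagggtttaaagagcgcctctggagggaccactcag
Asns: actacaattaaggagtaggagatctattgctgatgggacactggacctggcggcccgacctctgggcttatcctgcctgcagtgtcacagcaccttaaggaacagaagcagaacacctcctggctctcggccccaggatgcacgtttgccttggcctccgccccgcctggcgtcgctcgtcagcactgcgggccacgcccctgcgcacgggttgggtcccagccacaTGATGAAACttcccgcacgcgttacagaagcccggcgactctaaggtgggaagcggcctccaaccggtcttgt
Atf3: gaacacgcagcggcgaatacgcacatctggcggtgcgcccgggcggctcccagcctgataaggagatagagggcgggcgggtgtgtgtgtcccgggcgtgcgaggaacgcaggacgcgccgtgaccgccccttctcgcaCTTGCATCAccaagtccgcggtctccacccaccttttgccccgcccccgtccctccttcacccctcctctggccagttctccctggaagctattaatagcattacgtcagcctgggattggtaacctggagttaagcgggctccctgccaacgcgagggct
Vldlr: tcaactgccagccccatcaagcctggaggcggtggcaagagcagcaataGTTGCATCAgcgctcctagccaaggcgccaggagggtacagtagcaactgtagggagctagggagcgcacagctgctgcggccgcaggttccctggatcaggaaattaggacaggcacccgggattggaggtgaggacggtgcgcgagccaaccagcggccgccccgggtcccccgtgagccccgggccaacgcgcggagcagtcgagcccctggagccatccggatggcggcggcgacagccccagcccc
In Asns the motif reads along the gene, 23 bases ahead of the start. It lies on the opposite strand in the other 4, starting 194 bases ahead of the start in Chac1, 111 in Atf3 and 201 in Vldlr, and 14 bases after the start in Trib3. Chac1 and Vldlr carry the same 9 letters, TGATGCAAC, and Atf3 differs from them only in the last base (TGATGCAAG).

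**Figure D1:**
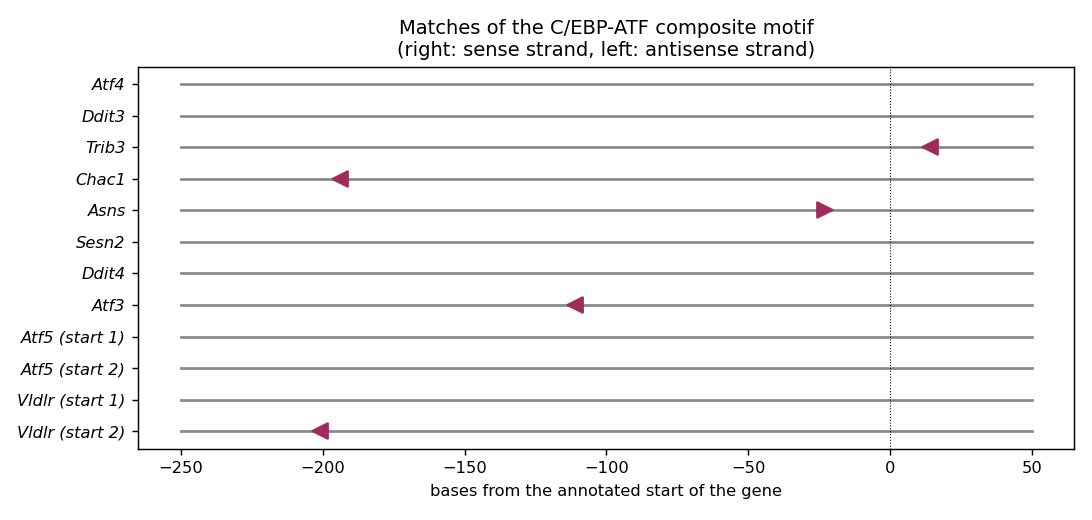
Matches of the composite motif in the 12 promoter windows of the 10 genes. The x axis is the distance in bases from the annotated start of the gene, grey lines are the windows searched, and triangles point right for a match on the sense strand and left for the antisense strand; 5 of 12 windows hold 1 match each.

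The value of 1 read was estimated from 79 genes with visible steps between low values. It lay between 0.961 and 1.019 relative to the mean over the libraries. Only genes whose low values fitted a common step in all libraries were kept, so this could not show unlike depth. By these steps, a 1 kb transcript at 1 RPKM holds about 13.0 reads. The targeted gene gave no check of the labels, because Chrm5 was listed at 0 or 0.01 RPKM in all 12 libraries, in the controls as well. The line markers agreed only in part with the names of the lines. Of 16 spermatogonial markers with values, 4 reached a mean of 0.5 RPKM in C18-4 cells and 8 were under 0.1 in every C18-4 library, among them Zbtb16, Ddx4 and Dazl. Of 13 Sertoli markers 6 reached 0.5 RPKM in TM4 cells, where Cldn11, Trf, Clu and Nr5a1 were under 0.1, and Wt1, a factor of Sertoli cells, read 0.06 to 0.15 RPKM in TM4 cells and 53.9 to 72.3 RPKM in C18-4 cells. Nanos2, Sall4, Fshr and Dmrt1 were not analysed here.

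Some libraries stood apart from those with the same label, and the 10 genes moved with them. Between TM4 shNC replicates 1 and 2 the root mean square difference of log2(RPKM + 0.1) was 0.076 over the 10 genes and 0.189 over all 11016 genes tested. Between TM4 shNC replicates 1 and 3 it was 2.03 over the 10 genes and 0.640 over all genes, while replicate 3 was 0.356 to 0.408 from the 3 shM5 libraries over the 10 genes and 0.202 to 0.257 over all genes. So the control library TM4 shNC replicate 3 lay nearer to the shM5 libraries than to its own group. Whether its label is right could not be checked from the targeted gene, which was at or near 0 in every library, and each TM4 difference between the groups depends on that label. In C18-4 cells replicate 3 of both groups stood apart: C18-4 shNC replicates 1 and 3 were 0.991 apart over the 10 genes and 0.438 over all genes tested, against 0.309 and 0.322 between the replicate 3 libraries of shNC and shM5. What sets these libraries apart was not tested. Each value of the 10 genes is therefore given library by library.

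**Figure D2:**
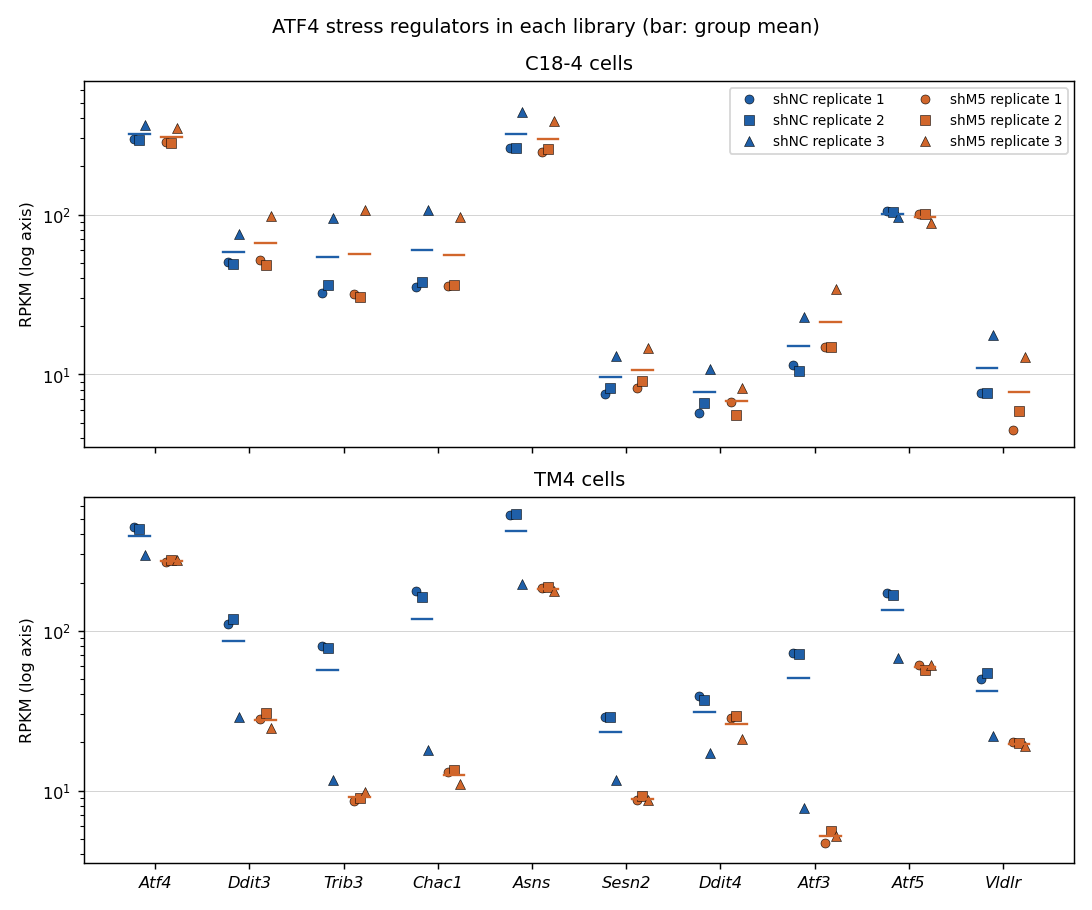
RPKM of the 10 genes in each library on a log axis, C18-4 cells above and TM4 cells below, with shNC in blue, shM5 in orange, a symbol for each replicate number and a bar at the group mean. In C18-4 cells the triangles (replicate 3) are the highest points of both groups for 9 genes, and in TM4 cells the blue triangle (shNC replicate 3) sits beside the shM5 libraries.

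Atf4, the hub of the set, was among the most abundant transcripts, ranking between 169 and 290 of 17995 genes over the 12 libraries. In C18-4 cells Atf4 read 295, 294 and 363 RPKM in shNC replicates 1 to 3 and 283, 279.9 and 349 in shM5 replicates 1 to 3. In TM4 cells it read 446, 432 and 297 in shNC and 267, 275 and 275 in shM5. Its range was the narrowest of the 10 genes in TM4 cells, 1.67-fold from lowest to highest, and in C18-4 cells it was 1.297-fold, with only Atf5 narrower at 1.18-fold. TM4 shNC replicate 3 was still above all 3 shM5 libraries, and the log2 difference of shM5 minus shNC was -0.50 (pooled SD 0.23, 3 libraries per group), or -0.69 without that library.

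Among the factors downstream of Atf4, Ddit3, which promotes cell death under lasting stress, read 50.3, 48.9 and 76.2 RPKM in C18-4 shNC and 51.9, 48.6 and 97.8 in C18-4 shM5. In TM4 cells Ddit3 read 111, 119 and 28.9 in shNC and 27.9, 30.5 and 24.8 in shM5. For Ddit3 the control TM4 shNC replicate 3 lay within the range of the shM5 libraries, so the groups overlapped, and the log2 difference of -1.39 (pooled SD 0.82) became -2.05 without that control.

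Atf3, a stress-induced bZIP repressor and activator, had one of the widest swings of the set. It read 11.5, 10.6 and 23.0 RPKM in C18-4 shNC and 14.9, 14.8 and 34.4 in C18-4 shM5. In TM4 cells it read 72.4, 71.0 and 7.76 in shNC and 4.73, 5.59 and 5.21 in shM5. From lowest to highest this was 15.3-fold in TM4 cells, rank 37 of 11016 genes by range, with a log2 difference of -2.71 (pooled SD 1.31) and of -3.77 without TM4 shNC replicate 3.

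Atf5, a close relative of Atf4 that is also controlled by translation, went its own way in C18-4 cells. There it read 105, 103 and 97.0 RPKM in shNC and 101, 101 and 88.6 in shM5, so the replicate 3 libraries were the lowest and not the highest. In TM4 cells it read 173, 166 and 67.3 in shNC and 61.0, 56.4 and 61.1 in shM5. The order of the TM4 libraries was like that of Atf3, with shNC replicate 3 just above the shM5 libraries, and the log2 difference was -1.07 (pooled SD 0.55), or -1.51 without shNC replicate 3.

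Trib3, a pseudokinase that feeds back on ATF4 and Ddit3 and restrains Akt signalling, read 32.6, 36.2 and 95.1 RPKM in C18-4 shNC and 31.8, 30.3 and 106.9 in C18-4 shM5. In TM4 cells it read 80.5, 78.1 and 11.7 in shNC and 8.60, 9.01 and 9.83 in shM5. The shM5 libraries of TM4 cells were close to each other, at 9.15 ± 0.626 RPKM (SD, n = 3), and the control at 11.7 was just above them. The log2 difference was -2.19 (pooled SD 1.13) and -3.10 without that control.

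Chac1, which degrades glutathione, had the widest range of the 10 genes in TM4 cells. Its values were 35.01, 37.7 and 107 RPKM in C18-4 shNC and 35.7, 36.2 and 96.1 in C18-4 shM5. In TM4 cells they were 176, 162 and 17.9 in shNC and 13.1, 13.5 and 10.95 in shM5. The highest TM4 library was 16.1-fold above the lowest, rank 32 of 11016 genes, and the log2 difference was -2.67 (pooled SD 1.32), or -3.75 without shNC replicate 3.

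Asns, the enzyme that makes asparagine, was the most abundant target. It read 261, 261 and 441 RPKM in C18-4 shNC and 248, 258 and 387 in C18-4 shM5. In TM4 cells it read 529, 539 and 197 in shNC and 185, 189 and 177 in shM5. Its log2 difference in TM4 cells was -1.06 (pooled SD 0.59), and -1.54 without shNC replicate 3.

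Sesn2 and Ddit4 both restrain mTORC1, the kinase complex that drives growth when nutrients are at hand. Sesn2 read 7.55, 8.25 and 13.0 RPKM in C18-4 shNC and 8.26, 9.06 and 14.6 in C18-4 shM5, and in TM4 cells 28.9, 29.0 and 11.6 in shNC and 8.69, 9.22 and 8.70 in shM5. Ddit4 read 5.77, 6.67 and 10.8 in C18-4 shNC and 6.74, 5.57 and 8.21 in C18-4 shM5, and in TM4 cells 38.9, 36.8 and 17.1 in shNC and 28.6, 29.1 and 20.9 in shM5. Here the pair parted: Sesn2 followed the pattern of Trib3 and Chac1 in TM4 cells, with a log2 difference of -1.26 (pooled SD 0.54), whereas for Ddit4 the control replicate 3 was the lowest of the 6 TM4 libraries and the difference was -0.16 (pooled SD 0.50). Without that control the differences were -1.70 for Sesn2 and -0.54 for Ddit4, and that of Ddit4 turned to 0.05 without shNC replicate 1 and to 0.0064 without shNC replicate 2.

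Vldlr, a lipoprotein receptor that takes up triglyceride-rich particles, had the widest range of the 10 genes in C18-4 cells, 3.96-fold (rank 95 of 11611 genes). It read 7.66, 7.68 and 17.7 RPKM in C18-4 shNC and 4.48, 5.91 and 12.9 in C18-4 shM5. In TM4 cells it read 50.2, 54.6 and 21.8 in shNC and 20.2, 19.7 and 19.0 in shM5. The TM4 log2 difference was -0.99 (pooled SD 0.52), and -1.41 without shNC replicate 3.

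**Figure D3:**
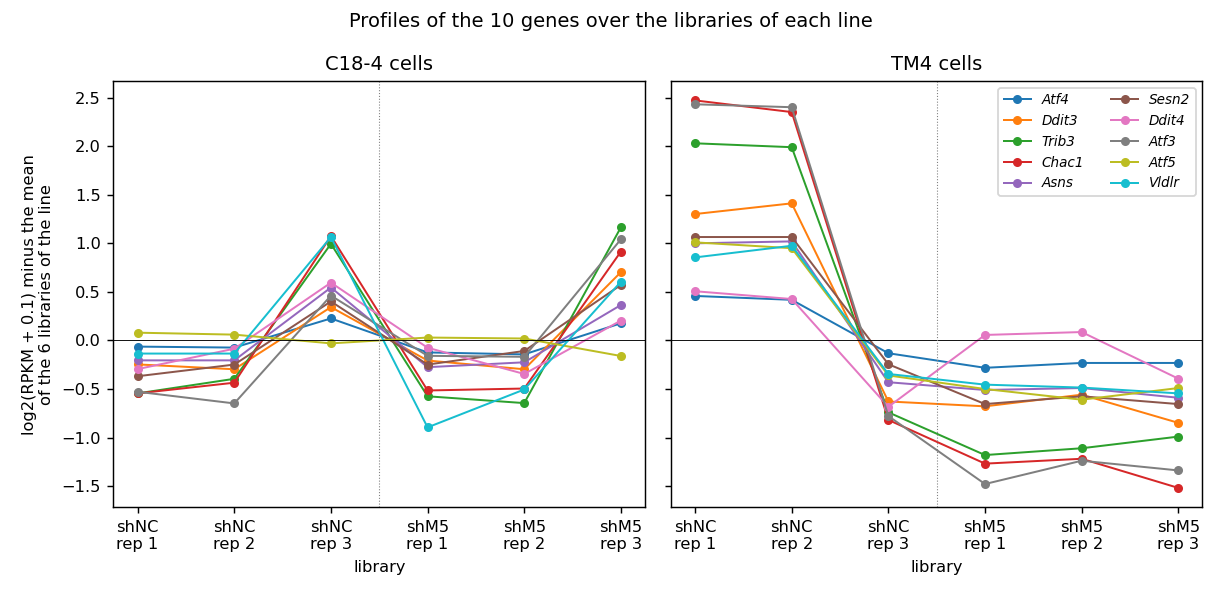
Profile of each of the 10 genes over the 6 libraries of C18-4 cells (left) and of TM4 cells (right), as log2(RPKM + 0.1) minus the mean of the 6 libraries. In C18-4 cells 9 lines peak at replicate 3 of both groups and Atf5 dips there, and in TM4 cells all 10 lines are highest at shNC replicates 1 and 2 and drop at shNC replicate 3.

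Set side by side, the 10 genes shared 2 profiles. In C18-4 cells replicate 3 of shNC and replicate 3 of shM5 were the 2 highest of the 6 libraries for 9 of 10 genes, an order found in 34.4% of all 11611 genes, and the 2 lowest for Atf5, an order of 16.2% of genes. In TM4 cells shNC replicates 1 and 2 were the 2 highest libraries for 10 of 10 genes, as for 35.4% of all 11016 genes. TM4 shNC replicate 3 was above all shM5 libraries and below both other controls for 8 of 10 genes, an order of 9.97% of genes, and the exceptions were Ddit3 and Ddit4.

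The groups of C18-4 cells overlapped for all 10 genes. The log2 differences of shM5 minus shNC ran from -0.53 for Vldlr (pooled SD 0.74) to 0.48 for Atf3 (pooled SD 0.65), each smaller than the spread within the groups. Leaving out shNC replicate 3 gave 0.83 for Atf3 and -0.13 for Vldlr, and leaving out shM5 replicate 3 gave 0.07 and -0.97. With all libraries of the line, the differences of the other 8 genes were between -0.14 and 0.14. Those of Trib3 and Chac1 became 0.45 and 0.46 without shNC replicate 3, and -0.63 and -0.54 without shM5 replicate 3. Among all genes tested in this line, the shM5 libraries were all above the shNC libraries in 9.3% and all below in 9.55%. At each replicate number, however, some members kept 1 direction: the ratio of shM5 to shNC for Atf3 was 1.29, 1.40 and 1.49 in replicates 1, 2 and 3, and for Vldlr it was 0.585, 0.770 and 0.730. Sesn2 was also higher at each number, with ratios of 1.094, 1.098 and 1.123, and Atf4, Asns and Atf5 were lower at each number, with ratios from 0.878 to 0.988. Thus 2 of 10 genes were above and 4 of 10 below at every number, against 24.7% and 25.8% of all genes. Ddit3, Trib3, Chac1 and Ddit4 changed direction between numbers.

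In TM4 cells the shM5 libraries were all below the shNC libraries for 8 of 10 genes, and for none all above. Over all genes tested in TM4 cells 11.1% lay wholly below and 15.7% wholly above. Since the genes were picked on these values, the counts describe the set and support nothing.

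Counts from the fits across all genes, made with limma and adjusted by the Benjamini-Hochberg method, are given for the 10 genes beside the share of all genes. Past the threshold of the study's methods (adjusted p no higher than 0.001, with a log2 difference of 1 or more in either direction), 0.0% of genes were called in C18-4 cells and 0.0% in TM4 cells, none of the 10 among them. At an adjusted p below 0.05 the shares were 0.586% of 11611 genes in C18-4 cells and 0.0% of 11016 genes in TM4 cells, again with none of the 10, while 1425 and 2866 genes had an unadjusted p under 0.05. With the replicate number as a block in C18-4 cells, 11.9% of genes were called and 2 of the 10, Atf3 (higher with shM5) and Vldlr (lower). This block takes same-numbered libraries as pairs, although pairing within replicates 1 and 2 is barely shown. Without TM4 shNC replicate 3, 30.9% of 11026 genes were called lower and 36.5% higher in TM4 cells, and the 10 genes were all among those called lower. That 1 library thus decides every call in the TM4 comparison. Leaving out any other TM4 library gave 0 calls.

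The order of the groups was alike for most members. TM4 shNC had the highest mean for 10 of 10 genes, although its range overlapped that of the next group for 9 of them, the exception being Vldlr. TM4 shM5 was the lowest group for 8 genes, and for 7 of these its libraries lay wholly below those of the group next above it. For Sesn2, the remaining one, the ranges of C18-4 shNC and TM4 shM5 overlapped. Ddit4 and Vldlr had another order, with both TM4 groups above both C18-4 groups; the lowest TM4 library of Ddit4 was at 17.1 RPKM and the highest C18-4 library at 10.8. C18-4 shNC and shM5 were neighbours for all 10 genes and always overlapped.

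The order of the members by RPKM, a level per length of transcript, also changed. Atf4 and Asns were the 2 most abundant members in all 4 groups, followed by Atf5. In C18-4 shNC, Chac1, Ddit3 and Trib3 came next with means of 59.98 ± 40.9, 58.4 ± 15.4 and 54.6 ± 35.1 RPKM (SD, n = 3), whose ranges overlapped, and Atf3, Vldlr, Sesn2 and Ddit4 were between 15.0 and 7.74. In TM4 shM5, Chac1 and Trib3 were down to 12.5 ± 1.38 and 9.15 ± 0.626 RPKM, under Ddit4 and Vldlr at 26.2 ± 4.63 and 19.6 ± 0.610, and Atf3 was last at 5.18 ± 0.431. The spread within TM4 shM5 was small for most members, with coefficients of variation from 1.67% for Atf4 to 17.6% for Ddit4, against 21.02% to 73.8% in TM4 shNC.

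Genes with the profile most like that of Ddit3, Trib3 and Chac1 were sought by the root mean square difference of the profiles over 12 libraries, centred within each line and in units of the gene's own SD, among 11157 genes. The 3 nearest to Chac1 were Gadd45a (0.0549), Sars (0.0828) and Atp2a3 (0.0870). In TM4 cells Atp2a3 was at most 0.30 RPKM, so its profile there rests on few reads. Gadd45a, a growth arrest gene, read 20.9, 21.9 and 58.6 RPKM in C18-4 shNC, 20.4, 22.9 and 55.6 in C18-4 shM5, 329, 312 and 35.5 in TM4 shNC and 27.6, 24.8 and 24.4 in TM4 shM5. So this gene repeats the high replicate 3 of both C18-4 groups and the low shNC replicate 3 of TM4 cells.

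The 3 nearest to Trib3 were Ppp1r15a (0.0985), Atxn2l (0.101) and Tsc22d3 (0.102). Ppp1r15a encodes GADD34, the subunit that directs a phosphatase to eIF2 and so ends the response, and it read 40.5, 41.9 and 81.2 RPKM in C18-4 shNC, 37.4, 37.2 and 87.8 in C18-4 shM5, 162, 162 and 31.9 in TM4 shNC and 24.4, 23.9 and 26.8 in TM4 shM5. The 3 nearest to Ddit3 were Zfp746 (0.123), Pnrc2 (0.124) and Herpud1 (0.128), the last a gene of endoplasmic reticulum-associated degradation. Within the set, Asns was the member nearest to Chac1 (rank 5 of 11157) and Atf4 the nearest to Trib3 (rank 9), whereas Ddit4, Atf5 and Vldlr ranked from 778 to 2318 to these 3 genes. The profiles share libraries and depth, and their likeness is a description only.

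Genes of the wider pathway were counted in 10 lists, beside the median over all genes tested, which was -0.0024 in C18-4 cells and 0.036 in TM4 cells. In TM4 cells no gene of any list passed an adjusted p of 0.05 in the fit of all 6 libraries, as no gene at all did (lowest adjusted p 0.192). The counts that follow are of list genes whose groups did not overlap and, in the fit without TM4 shNC replicate 3, of genes with an adjusted p below 0.05. They are read against all genes of TM4 cells, of which 15.7% were wholly higher and 11.1% wholly lower with shM5, and 36.5% rose and 30.9% fell without that library.

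The sensors and switches of eIF2 were mixed. Of 14 eIF2 kinases, eIF2B subunits and phosphatase subunits tested in TM4 cells, 4 were wholly higher and 4 wholly lower with shM5, with a median log2 difference of -0.08, and 6 rose and 6 fell without shNC replicate 3, in each case a larger share than of all genes, in both directions. Ppp1r15a had a log2 difference of -1.91 (SE 0.62, limma adjusted p = 0.192). Eif2ak3, the PERK kinase, moved the other way: it read 4.13, 3.46 and 7.12 RPKM in shNC and 8.16, 8.55 and 7.58 in shM5, a difference of 0.78 (SE 0.26, limma adjusted p = 0.192). Without shNC replicate 3 these were -2.69 (SE 0.06) for Ppp1r15a and 1.08 (SE 0.10) for Eif2ak3, both with a limma adjusted p under 0.05.

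Among genes of amino acid supply most TM4 values were lower with shM5, the direction of the 10 genes. Of 13 amino acid transporters, 8 were wholly lower and 1 wholly higher, with a median of -1.29, and 11 fell and 1 rose without shNC replicate 3. Slc7a11, the cystine importer, read 25.5, 26.3 and 3.55 RPKM in shNC and 2.78, 2.52 and 2.92 in shM5, and Slc7a3, a cationic amino acid transporter, read 47.7, 49.1 and 10.8 in shNC and 7.58, 6.95 and 8.16 in shM5. Of 15 enzymes of serine, one-carbon, proline and cysteine metabolism, 8 were wholly lower and 1 wholly higher, with a median of -0.997, and 14 fell and 1 rose without that control. Cth, which makes cysteine, had values of 159.8, 162 and 19.0 RPKM in shNC and 13.7, 15.0 and 14.7 in shM5, and Psph, the last step to serine, of 147, 151 and 46.6 against 39.9, 41.3 and 43.8. Cytosolic aminoacyl-tRNA synthetases, which charge tRNAs, were wholly lower in 10 of 20 and wholly higher in 2, with a median of -0.63, and 17 fell and 2 rose without that control. Nars and Lars had log2 differences of -0.91 (SE 0.33) and -0.85 (SE 0.31), each with a limma adjusted p of 0.192.

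Partner factors and further targets of the pathway were also mostly lower, and the paralogs of the members were mixed. Of 16 bZIP partner factors, 4 were wholly lower and 1 wholly higher, with a median of -0.42, and 12 fell and 2 rose without shNC replicate 3. Jdp2 and Jun, both AP-1 family factors, had log2 differences of -0.79 (SE 0.29) and -0.60 (SE 0.17), with a limma adjusted p of 0.192 each. Of 19 secreted and cell fate targets, 9 were wholly lower and none higher, with a median of -0.92, and 17 fell and 1 rose without that control. Gadd45a, described above, and Adm2, a secreted peptide of the calcitonin family, named by the rule, had log2 differences of -2.59 (SE 0.84) and -1.80 (SE 0.59), and both had a limma adjusted p of 0.192. Of 12 paralogs of the members, 2 were wholly lower and 2 higher, with a median of 0.12, and 4 fell and 6 rose without that control, the wholly higher and the fallen near the 15.7% and 30.9% of all genes. Trib2, a relative of Trib3, read 1.79, 2.07 and 5.94 RPKM in shNC and 8.17, 8.30 and 5.95 in shM5.

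In the other arms of the unfolded protein response most differences pointed up, but not those of their regulators Atf6, Xbp1 and Ern1. The chaperone Hspa5 also had a lower mean with shM5 in TM4 cells. It read 766, 792 and 617 RPKM in shNC and 618, 605 and 589 in shM5. Of 20 genes of the ATF6 and XBP1 branch, which supplies chaperones and secretory machinery, 9 were wholly higher with shM5 in TM4 cells and 1 wholly lower, with a median of 0.34, and 13 rose and 4 fell without shNC replicate 3. Sec24d, a coat protein of vesicles leaving the endoplasmic reticulum, read 20.3, 19.6 and 44.9 RPKM in shNC and 48.7, 50.5 and 46.7 in shM5, whereas the co-chaperone Dnajb9 read 23.9, 26.0 and 12.6 in shNC and 11.3, 11.4 and 12.2 in shM5. Of 13 p53 targets 6 were wholly lower and none higher, with a median of -0.21, and 7 fell and 4 rose without that control, against 30.9% and 36.5% of all genes. Plk2 had a log2 difference of -1.78 (SE 0.49), and Mdm2 one of -0.40 (SE 0.13), each with a limma adjusted p of 0.192. Of 12 hypoxia targets 2 were wholly higher, Ankrd37 and P4ha1, near the 15.7% of all genes, and none lower, with a median of 0.41, and 10 rose and 1 fell without that control. Whether one list moved more than another was not tested.

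**Figure D4:**
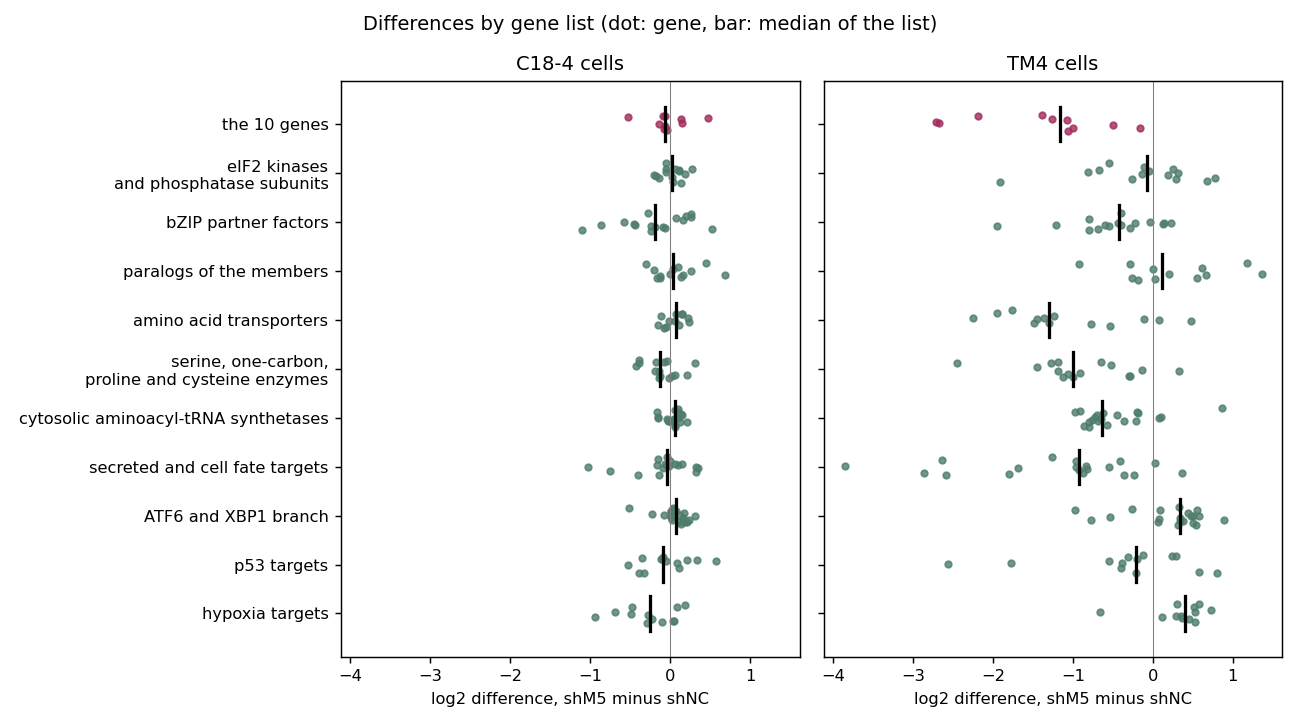
Log2 difference of shM5 minus shNC for the 10 genes (top row) and for each gene of the 10 pathway lists, C18-4 cells left and TM4 cells right, with a dot per gene and a bar at the median of the row. In TM4 cells the medians of the amino acid transporters and of the serine, one-carbon, proline and cysteine enzymes lie at -1.29 and -0.997 and that of the ATF6 and XBP1 branch at 0.34, while in C18-4 cells all medians lie between -0.25 and 0.08.

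Markers of the cell types moved with the TM4 values as well. The summed RPKM of the 13 Sertoli markers was 49.4 to 92.5 in TM4 shNC and 44.5 to 48.0 in TM4 shM5, and that of 5 peritubular myoid markers was 122 to 250.02 in shNC and 231 to 350.4 in shM5. Kitl, the Sertoli cell ligand of Kit, read 49.5, 49.4 and 22.7 RPKM in shNC and 18.4, 18.5 and 22.0 in shM5, so its shNC replicate 3 was also beside the shM5 libraries. Of the 5 myoid markers 3 reached a mean of 0.5 RPKM in TM4 cells, and the defining Myh11 was under 0.1 in every library. In C18-4 cells the myoid sum was 61.9 to 77.9 in shNC and 113 to 158 in shM5. Leydig and macrophage sums were at most 1.58 and 4.48 RPKM in all libraries, with Cyp17a1 and Hsd3b1 and, of the macrophage list, Adgre1 at 0 throughout. The part of these markers in the values of the 10 genes was not tested, and in bulk RNA fewer cells of a type and less RNA per cell cannot be told apart.

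In C18-4 cells the pathway lists had medians from -0.25 for hypoxia targets to 0.08 for the ATF6 and XBP1 branch, and 1 list gene passed an adjusted p of 0.05 in the fit without a block. This was Mafk, a small Maf factor that partners other bZIP proteins, which rose from 19.8, 19.4 and 21.3 RPKM in shNC to 28.5, 28.0 and 30.7 in shM5, a log2 difference of 0.52 (SE 0.08, limma adjusted p = 0.0459). Over the alternatives its limma adjusted p ran from 0.00208 to 0.408, and the call was lost with no filter, with no mean-variance trend, with all 12 libraries in 1 fit and on leaving out any library of the line other than shNC replicate 3. No other gene of the bZIP partner list passed, and Cebpd, a C/EBP factor, had a log2 difference of -0.58 (SE 0.15, limma adjusted p = 0.166). The named genes of the other lists included Bnip3, a mitophagy receptor of the hypoxia list, at -0.94 (SE 0.18, limma adjusted p = 0.0891), Btg2 of the p53 list at 0.58 (SE 0.14, limma adjusted p = 0.166) and Dusp4, a MAPK phosphatase, at 0.34 (SE 0.07, limma adjusted p = 0.125).

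With the replicate block the call changed for several lists in C18-4 cells. These calls rest on pairs by replicate number, and such pairing is barely shown within replicates 1 and 2. Of 17 bZIP partner factors 2 rose and 8 fell, 10 of 17 beside the 11.9% of all genes. Those that fell were Cebpa, Cebpb, Cebpd, Fosl1, Fosl2, Jdp2, Junb and Nupr1, and those that rose were Mafk and Mafg. Cebpb, a C/EBP factor that pairs with ATF4, read 31.8, 31.0 and 43.1 RPKM in shNC and 22.3, 23.2 and 32.4 in shM5, a log2 difference of -0.45 (SE 0.05, limma adjusted p = 0.00329). Cebpb, Fgf21, Gdf15 and Hspa5 are named here after their values were seen. Of 18 secreted and cell fate targets 2 rose and 3 fell: the hormone Fgf21 read 14.2, 14.2 and 65.4 RPKM in shNC and 5.78, 7.56 and 34.6 in shM5 (log2 difference -1.03, SE 0.08, limma adjusted p = 0.00104), and the hormone Gdf15 went the other way, from 22.9, 24.3 and 61.7 to 29.6, 28.3 and 80.3 (0.32, SE 0.06, limma adjusted p = 0.0124). Both were highest in replicate 3 of each group, as were 9 of the 10 genes.

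The counts of the remaining lists with the block in C18-4 cells are also to be read beside the 11.9% of all genes called. Of 12 amino acid transporters 2 rose and none fell, of 15 serine, one-carbon, proline and cysteine enzymes 2 rose and 2 fell, and of 20 synthetases 1 rose. Of 14 eIF2 genes 1 rose, Impact, and of 13 paralogs 1 rose and 1 fell. Of 21 genes of the ATF6 and XBP1 branch 3 rose, among them the chaperone Hspa5 at 636, 608 and 393 RPKM in shNC and 714, 690.5 and 508 in shM5 (0.24, SE 0.05, limma adjusted p = 0.0235). Unlike the 10 genes other than Atf5, Hspa5 was lowest in replicate 3 of both groups. Of 13 p53 targets 1 rose and 3 fell, and of 12 hypoxia targets 3 fell.

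An interaction term over 11773 genes tested whether the shM5 effect differed between C18-4 and TM4 cells. It was called at an adjusted p below 0.05 for 0.102% of genes, none of them among the 10 genes or the 10 lists, while 2463 genes had an unadjusted p under 0.05. Without TM4 shNC replicate 3 the interaction was called for 4477 genes, 8 of the 10 genes among them (all but Ddit4 and Vldlr) with a lower effect in TM4 cells, as for 16.4% of all genes. This comparison rests on that library too, and the lines are not shown to differ in their response for any list gene when all libraries are used.

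Between the control groups of the lines, TM4 shNC against C18-4 shNC, 19.2% of 11810 genes passed the threshold of the study's methods, and none of the 10 genes did. At an adjusted p below 0.05, 20.5% of genes were higher in TM4 shNC, among them Sesn2, Ddit4 and Vldlr of the 10. Without TM4 shNC replicate 3 it was 27.0% of genes and 9 of the 10, all but Trib3, and 1, Ddit4, then passed the stricter threshold. The log2 levels of 9 of 10 were higher in TM4 shNC and that of Trib3 was lower, although its mean RPKM was higher, and the groups did not overlap for 2, Ddit4 and Vldlr. The list counts that follow are at the stricter threshold of the study's methods, with all control libraries. They are read beside 754 genes higher and 1511 lower in TM4 shNC among all 11810. Of the lists, the synthetases had no call among 20 genes. Of 13 transporters 1 was higher in TM4 shNC, Slc7a3, at 0.06 to 0.08 RPKM in C18-4 shNC and 10.8 to 49.1 in TM4 shNC. Psat1, of serine synthesis, was higher among 15 enzymes of its list, at 216 to 256 RPKM in C18-4 shNC and 389 to 519 in TM4 shNC. Of 17 bZIP partner factors 3 were higher in TM4 shNC, Batf3, Fosl1 and Fosl2, and 1 was lower, Cebpa, which was listed at 0 in all TM4 libraries. Of 20 secreted and cell fate targets 3 were higher, Adm2, Ero1l and Stc2, and 2 lower, Gadd45b and Pmaip1. Of 13 paralogs 1 was higher, Lrp8, and 2 were lower, Ddit4l and Sesn1. Eif2ak1, the haem-regulated eIF2 kinase, was lower among 14 eIF2 genes, with 48.7 ± 0.533 RPKM in C18-4 shNC and 20.3 ± 3.50 in TM4 shNC (SD, n = 3). Of 21 genes of the ATF6 and XBP1 branch 2 were lower, Derl3 and Hyou1, of 14 p53 targets 3 were lower, Ccng1, Perp and Trp53inp1, and of 12 hypoxia targets 2 were higher, Ankrd37 and Pdk1, and 1 lower, Egln3.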

How the data were processed

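The authors enriched mRNA with oligo(dT), sequenced it on an Illumina HiSeq and mapped reads with SOAPaligner. Their deposited values are RPKM (read numbers scaled for gene length and library size), written with 2 decimals. The genome build is not given in the sources used here, and the testis libraries were not used here. Read numbers are estimated from low-value steps, so intervals from counts are not given.

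log2(RPKM + 0.1) was fitted with limma 3.58.1 in R 4.3.3 (eBayes, mean-variance trend, mean RPKM of at least 0.5, Benjamini-Hochberg), per line, between the controls and as an interaction over 12 libraries. This fit was also run on simulated data with independent noise between libraries. That run could not show how the fit behaves where libraries stand apart, as they do here. Alternatives were pseudocount 1, no filter, no trend, upper-quartile scaling, all libraries in 1 fit, a replicate block and leaving out each library.

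The 10 genes and all lists were chosen with earlier results of these data known. From each list were named the genes called in a line (at most 4) or, with fewer than 2 calls, the 2 non-overlapping genes with the largest difference at a mean of at least 5 RPKM, as well as the 3 nearest profiles, and others were named after their values were seen. Same-numbered C18-4 libraries deviated together from their group means (correlations across genes 0.439, 0.409 and 0.631). Replicates 1 and 2 of unlike number correlated nearly as much, at 0.341 and 0.345, and either with replicate 3 at -0.514 to -0.467. The numbers thus set replicate 3 apart, and pairing within replicates 1 and 2 is barely shown. The replicate block takes all same-numbered libraries as pairs. Same-numbered TM4 libraries did not all pass 0.1 (0.073, 0.049 and 0.127). Promoters are RefSeq windows of GRCm38.p6.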

Additional observations from a re-analysis of the deposited data

How the results depend on the processing

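For the 10 genes, 80 alternative values of the log2 difference in each line all stayed within 1 pooled SD of the value given. For the values with 1 library left out this was fixed in advance and shows no stability. With 3 libraries per group, leaving out 1 cannot shift the difference by a whole pooled SD. Chac1 in TM4 cells still went from -2.67 to -3.75 without shNC replicate 3. The sign changed in 13 of 80 in C18-4 cells, over 7 genes, and in 2 of 80 in TM4 cells, both for Ddit4.

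In C18-4 cells the 68 genes at an adjusted p below 0.05 became 4 with no filter on low values, 45 with no mean-variance trend and 151 with all 12 libraries in 1 fit, and ranged from 0 to 237 with 1 library left out. They were 0 without shNC replicate 1 or 2 or without shM5 replicate 1 or 2, 31 without shM5 replicate 3 and 237 without shNC replicate 3. With the replicate block they were 1386, and genes past the study's threshold went from 0 to 9. In TM4 cells, where the block gave 0 calls as well, leaving out 1 library gave 0 to 7433 calls at an adjusted p below 0.05 and 0 to 896 past the study's threshold, the upper values without shNC replicate 3 and 0 otherwise. The interaction, 12 genes, gave 27 with pseudocount 1, 21 with no filter, 22 with no trend and 2 with the replicate block, and 0 to 4477 with 1 library left out: 31 and 4 without C18-4 shNC or shM5 replicate 3, 4477 without TM4 shNC replicate 3, and at most 2 without any other library. The control comparison, 2265 genes, gave 1021 with the replicate block and 1360 to 3124 with 1 library left out, falling by over 1.5 times without C18-4 shNC replicate 1 (1363) or 2 (1360). Where a library was left out, the pair that remained set the spread with the other group. The cause of these shifts was not tested. RPKM values near 0.1 hold few reads, so low genes are the least precise.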
